A study of Rattus norvegicus with 6 samples.

Results

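The ephrin, semaphorin, plexin and netrin guidance genes were examined in primary rat brain microvascular endothelial cells (rBMECs) given homocysteine (Hcy) or vehicle (Veh). Members were the rows of the count table whose gene symbol begins as an Eph receptor of class A or B, an ephrin, a semaphorin, a plexin of class A to D, an Unc5 receptor or a netrin, which gave 59 of 33566 genes. The rule used symbols only and no measured value. RNA was sequenced from 6 libraries, 3 of Hcy-treated and 3 of Veh-treated cells. rBMECs line the capillaries of the brain and were isolated from the cerebral cortex, by the labels, or the forebrain, by the study's methods, of Sprague-Dawley rats aged 18 to 22 days, purified in culture and used after a single passage. Hcy cells received homocysteine in water for 24 h, at 100 μM by the treatment label, while the protocol also names a prepared solution of 50 μM. Veh cells received sterile water. The labels name no genetic change in either group. The design text calls the replicates biological, but nothing in the labels says whether they came from separate isolations, so the p-values measure the spread between these libraries.

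These families are known from axons, which they attract or repel, and most of them also act in blood vessels. Eph receptors are tyrosine kinases that bind ephrins on a neighbouring cell, and signals run into both cells. Ephrin-A proteins are held in the membrane by a lipid anchor and ephrin-B proteins span it. Ephrin-B2 marks arterial and EphB4 venous endothelium. Class 3 semaphorins are secreted and act mostly through a neuropilin that binds the ligand and a plexin that carries the signal into the cell, and plexin-D1 is the plexin best known from endothelium. Class 4, 5 and 6 semaphorins are anchored in the membrane by a transmembrane stretch, and semaphorin 7A by a lipid. Netrins are secreted and bind Dcc, neogenin and the Unc5 receptors, of which Unc5b is the vascular member.

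The libraries held 14024997 to 16764584 counts of reads on genes, so that 3 counts corresponded to 0.178 to 0.215 CPM, the count as a rate of the library total scaled by edgeR's TMM factor. This floor covers counting error only. Of 15 endothelial markers, 13 were matched by name and 12 were tested. Their summed level was 9943 to 10352 CPM in Hcy and 8437 to 9680 CPM in Veh, with Cdh5, which encodes VE-cadherin, at 1535 to 2040 CPM in the 6 libraries and Cldn5 at 0 counts in all of them. None of the 12 passed the adjusted p by edgeR, and 6 had an unadjusted p of 0.05 or less, against 2.34% and 13.4% of all genes tested, with Vwf, Kdr and Flt1 higher and Slc2a1, Tek and Mfsd2a lower in Hcy. Markers of neurons summed to at most 9.77 CPM in any library, those of microglia to at most 3.09 CPM and those of epithelium to at most 1.01 CPM, and 5 of 8 neuron markers and 3 of 8 microglia markers had no count. Fibroblast markers summed to 62.0 to 82.4 CPM in Hcy and 74.5 to 102 CPM in Veh, where Col1a1 alone was at 34.2 to 55.6 CPM and 55.8 to 82.0 CPM and the other 5 tested were fitted higher in Hcy. Astrocyte markers summed to 113 to 117 CPM and 126 to 151 CPM, nearly all of it from Gja1 at 113 to 116 CPM and 125 to 150 CPM, and oligodendrocyte markers to 64.1 to 68.2 CPM and 61.9 to 70.5 CPM, most of it from Cnp at 51.7 to 57.5 CPM and 50.6 to 59.3 CPM, in Hcy and Veh respectively. Aqp4 and Slc1a2 of the astrocyte list and Mag of the oligodendrocyte list had no count, while Mog of the latter was at 9.47 to 10.4 CPM. Among pericyte and smooth muscle markers, 3 smooth muscle genes were lower in Hcy. All 12 markers of this list were tested, 6 fitted higher and 6 lower with a median log2 fold change of 0.20, and they summed to 681 to 708 CPM in Hcy and 1124 to 1353 CPM in Veh. At an adjusted p of at most 0.05, 3 of the 12 were lower in Hcy, namely Tagln, Cnn1 and Acta2, and 0 were higher (edgeR, with 4 at an unadjusted p of 0.05 or less), where 1.01% of all genes were lower and 1.32% higher at the adjusted p and 13.4% had such an unadjusted p. Myh11, also of smooth muscle, was scarce and overlapped between groups, at 15 to 25 counts in every library (log2 fold change -0.04, edgeR adjusted p = 0.981). Des, Notch3 and Anpep overlapped too, with log2 fold changes of 0.55, 0.44 and -1.09. Pericyte markers themselves were scarce and were fitted higher or lower without passing, with log2 fold changes of 0.73 for Pdgfrb (19 to 54 counts), 1.26 for Rgs5 (1 to 9 counts), 0.87 for Abcc9 (2 to 16 counts), -0.99 for Kcnj8 (4 to 13 counts) and 1.66 for Cspg4 (3 to 16 counts). The groups did not overlap in Cspg4 and Rgs5, higher in Hcy, and in Kcnj8, lower in Hcy, with adjusted p values of 0.188, 0.464 and 0.46 by edgeR. The part of these cells in the results below was not tested. In bulk RNA, fewer cells of a type and less RNA per cell cannot be told apart. In the members, Veh replicate 3 stood apart from the other Veh libraries. Of the 28 members at 1 CPM or more in Veh, it was the lowest Veh library in 20. The same count over all genes was not made.

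Most of the guidance genes were detected in rBMECs, but few were abundant. Of the 59 members, 43 had at least 10 counts summed over the 6 libraries and were tested. The other 16 were at most at 4 counts in any library. Epha3, Epha8, Plxnb3 and Unc5d had no count at all, and the rest were Epha5, Ephb2, Ephb3, Efna2, Efnb3, Ntn1, Ntn5, Plxnc1, Sema4f, Sema5a, Sema5b and Unc5cl. The last encodes a protein that shares a death domain with the Unc5 receptors, and it entered through its symbol. Levels between genes were compared as CPM per kb of the gene length that the table lists. On this scale Sema7a was the most abundant member, at 333 CPM per kb in Hcy and 268 CPM per kb in Veh. Epha2 and Plxnd1 came next, and their order depended on the group, with Epha2 at 98.9 and Plxnd1 at 63.1 CPM per kb in Veh and 85.1 and 103 CPM per kb in Hcy. In the mean of both groups they were followed by Plxna2 at 67.1, Plxnb2 at 42.2 and Ephb4 at 32.2 CPM per kb. Efna1 at 16.6, Sema6b at 16.0, Sema6d at 13.0, Efnb1 at 11.9, Unc5b at 11.4 and Efnb2 at 11.1 CPM per kb came next. Some neighbours in this order lay within the spread between libraries, such as Efnb1 and Unc5b in Veh at 11.7 and 11.6 CPM per kb, and Plxnd1 and Plxna2 in Veh at 63.1 and 69.9 CPM per kb. Several families rested on a single gene. Epha2 made up 98.8% ± 0.106 of the EphA level per kb in Hcy and 98.5% ± 0.348 in Veh (SD, n = 3), and Unc5b 98.6% ± 0.242 and 98.2% ± 0.318 of the Unc5 level.

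**Figure D1:**
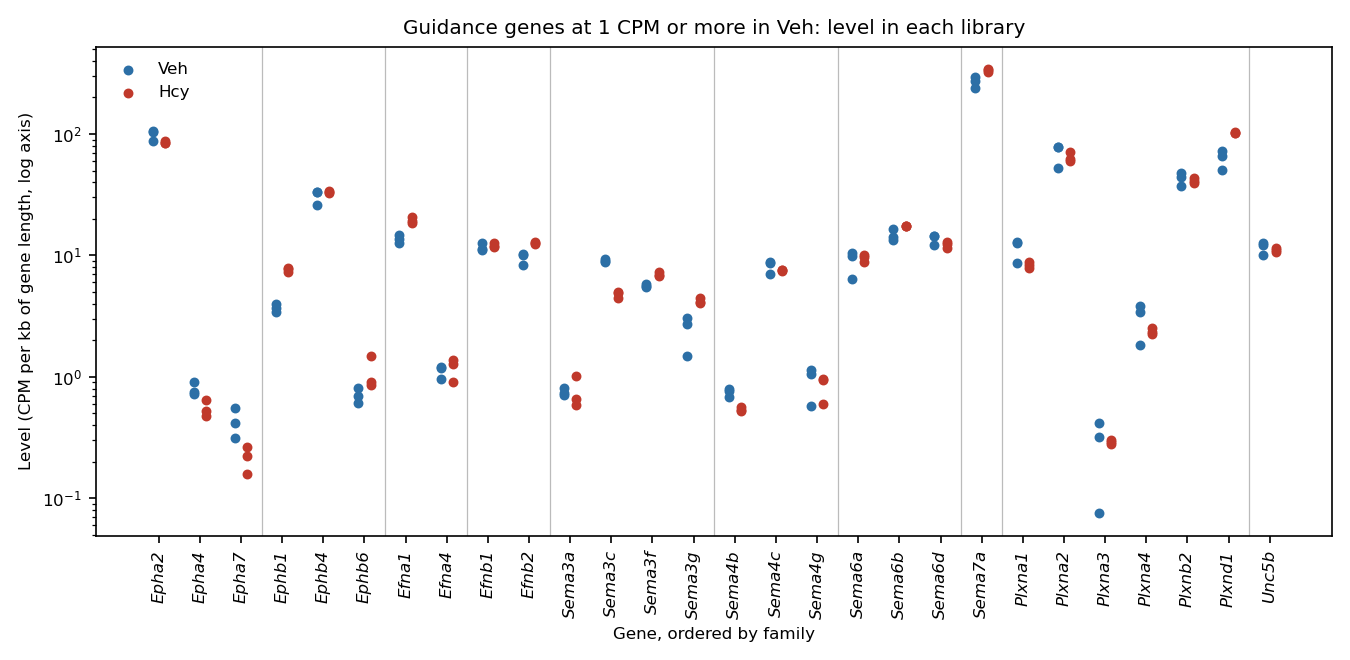
Level of the 28 guidance genes at 1 CPM or more in Veh, as CPM per kb of gene length on a log axis, with 1 point per library (blue Veh, red Hcy) and genes grouped by family between the grey lines. Sema7a sits highest. The red and blue points of Ephb1, Efna1, Sema3c and Plxnd1 do not overlap, nor do those of other members, such as Epha2, Efnb2 and Sema7a. Of the 43 members tested 18 were apart, against 20.1% of all genes.

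Ephb1 rose and Sema3c fell most clearly. A gene was called where the adjusted p was 0.05 or less and the log2 fold change 1 or more in either direction, and 1 of the 43 members tested was called. The share over all 14603 genes tested was 0.486%. Without the fold threshold 4 members passed, Ephb1, Efna1 and Plxnd1 higher and Sema3c lower in Hcy, where 2.34% of all genes passed, 1.32% higher and 1.01% lower. At an unadjusted p of at most 0.05 there were 16 members, 10 higher and 6 lower, against 13.4% of all genes. In 18 members the 2 groups of libraries were fully apart, 10 higher and 8 lower in Hcy, against 20.1% of all genes. The median log2 fold change of the tested members was -0.07, and that of all genes tested was -0.02, with 19 members fitted higher and 24 lower. The 4 genes that passed the adjusted p lie on chromosomes 8, 2, 4 and 4.

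**Figure D2:**
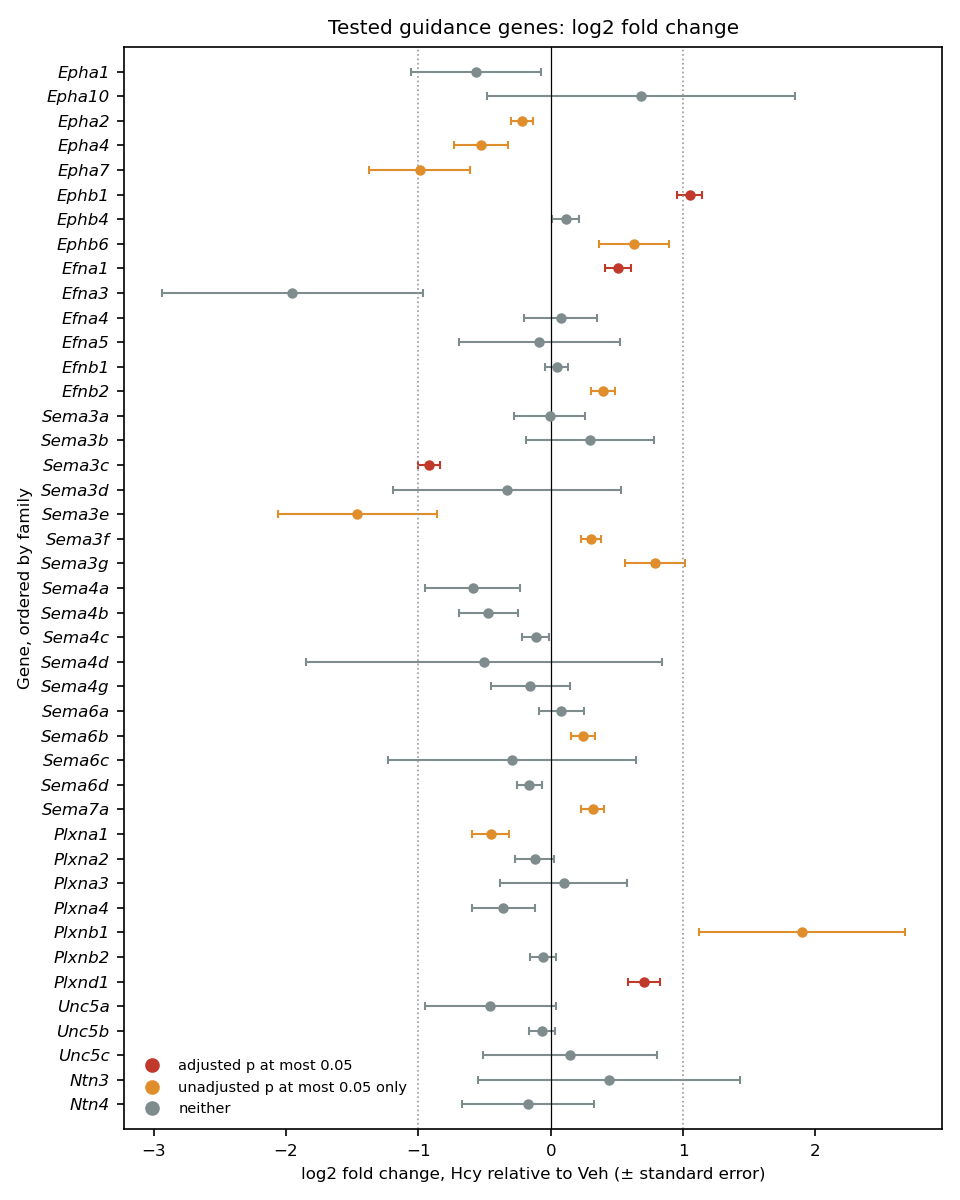
Log2 fold change of the 43 tested guidance genes, Hcy relative to Veh, with the standard error as a bar and dotted lines at -1 and 1. Red points passed an adjusted p of at most 0.05, and only Ephb1 among them lies beyond a dotted line, at 1.05.

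Promoter windows of these 4 genes are shown because these genes passed the adjusted p by edgeR with all libraries, with every CG in capitals, since CG is the site at which mammalian DNA is methylated. The files hold no methylation data. Each window runs from 250 bases before to 50 bases after the start that RefSeq lists, 5′ to 3′ on the gene's strand, in build GRCr8. RefSeq had a window for 46 of the 59 members. The start used lies 2826 bases inside the listed span of Sema3c, 1854 inside that of Efna1 and 519 inside that of Plxnd1, so these windows stand for a single listed start, and which start these cells used was not analysed here.
Ephb1, chr8:111823710-111824009, minus strand: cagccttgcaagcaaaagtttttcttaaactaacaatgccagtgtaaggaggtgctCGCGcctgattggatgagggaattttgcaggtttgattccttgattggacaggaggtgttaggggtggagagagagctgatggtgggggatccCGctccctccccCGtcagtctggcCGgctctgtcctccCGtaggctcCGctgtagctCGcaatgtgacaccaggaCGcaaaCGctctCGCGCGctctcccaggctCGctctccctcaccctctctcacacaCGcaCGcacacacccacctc
Efna1, chr2:176986772-176987071, minus strand: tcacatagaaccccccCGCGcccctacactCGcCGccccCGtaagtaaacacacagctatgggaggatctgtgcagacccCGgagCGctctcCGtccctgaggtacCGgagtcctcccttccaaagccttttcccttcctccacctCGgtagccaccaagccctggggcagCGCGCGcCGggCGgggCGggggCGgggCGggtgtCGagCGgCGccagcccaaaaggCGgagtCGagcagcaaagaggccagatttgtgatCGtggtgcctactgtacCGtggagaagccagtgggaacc
Sema3c, chr4:18699578-18699877, minus strand: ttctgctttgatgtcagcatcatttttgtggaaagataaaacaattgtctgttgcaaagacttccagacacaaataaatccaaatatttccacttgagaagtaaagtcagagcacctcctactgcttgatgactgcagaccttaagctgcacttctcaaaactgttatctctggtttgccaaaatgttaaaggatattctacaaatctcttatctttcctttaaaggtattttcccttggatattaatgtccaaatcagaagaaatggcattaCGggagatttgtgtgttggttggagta
Plxnd1, chr4:150715138-150715437, minus strand: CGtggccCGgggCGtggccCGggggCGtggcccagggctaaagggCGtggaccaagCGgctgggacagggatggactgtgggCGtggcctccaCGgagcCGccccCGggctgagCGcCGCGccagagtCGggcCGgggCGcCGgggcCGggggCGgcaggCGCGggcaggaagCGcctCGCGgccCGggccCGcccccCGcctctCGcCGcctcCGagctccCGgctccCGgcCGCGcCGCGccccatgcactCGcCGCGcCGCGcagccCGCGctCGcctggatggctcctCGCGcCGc
CG was counted in these letters, which read the same on both strands. The Ephb1 window held 16 CG, the Efna1 window 25, the Plxnd1 window 48 and the Sema3c window 1. The median was 18 over the 46 members with a window and 7 over all 33469 windows, of which 94.5% held at least 1. The window of the gene that fell was thus low in CG, with 5.47% of all windows holding fewer, and that of Plxnd1 was high, with 99.0% holding fewer. The 3 genes that rose differed widely among themselves.

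Among the receptors, Ephb1 rose. This gene encodes EphB1, a receptor of the ephrin-B proteins, and is listed on chromosome 8 (110376954 to 110813000, minus strand), as the count table gives positions. It had 36.1, 35.9 and 33.6 CPM in Hcy replicates 1, 2 and 3 and 17.04, 15.7 and 18.3 CPM in Veh replicates 1, 2 and 3. Every Hcy library was above every Veh library by a wide gap. The mean was 35.2 ± 1.40 CPM in Hcy and 17.02 ± 1.27 CPM in Veh (SD, n = 3), a log2 fold change of 1.05 (SE 0.10, adjusted p = 0.00112 by the quasi-likelihood test of edgeR with the Benjamini-Hochberg method). Without Veh replicate 2 its log2 fold change was 0.99, just under the fold threshold, and the adjusted p stayed at or below 0.0141 with any library left out. Ephb4, the venous receptor of ephrin-B2, was the main EphB gene, and it overlapped between groups at 133 to 137 CPM in Hcy and 106 to 136 CPM in Veh. The log2 fold change of Ephb4 was 0.11 with a 95% confidence interval from -0.11 to 0.34. In Ephb6 the high value came from Hcy replicate 3, with 102 counts against 51 and 52 in the other Hcy libraries. Ephb6, which encodes a receptor without kinase activity, was at 3.49 to 6.09 CPM in Hcy and 2.49 to 3.27 CPM in Veh (log2 fold change 0.63, edgeR adjusted p = 0.341), and without that library its log2 fold change was 0.32. The share of Ephb1 in the EphB level per kb was 18.0% ± 0.542 in Hcy and 10.5% ± 1.98 in Veh, and that of Ephb4 was 79.3% ± 0.408 and 87.4% ± 2.24 (SD, n = 3).

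No EphA receptor passed the adjusted p, and 3 of the 5 tested had all Hcy libraries below all Veh libraries, where 20.1% of all genes were apart in either direction. Epha2, whose product binds ephrin-A1 in endothelium, was at 339, 331 and 328 CPM in Hcy and 416, 403 and 342 CPM in Veh. The margin was narrow at Veh replicate 3. Its log2 fold change was -0.22 (SE 0.08, edgeR adjusted p = 0.285), and without Veh replicate 3 it was -0.30 (edgeR adjusted p = 0.00622). In that fit 6.67% of all genes passed, against 2.34% with all libraries. Epha2 passed in 1 of the 6 edgeR fits with a library left out, and its adjusted p reached 0.595 without Hcy replicate 3. Epha4, a receptor that binds ephrins of both classes, was at 3.02 to 4.12 CPM in Hcy and 4.57 to 5.73 CPM in Veh (log2 fold change -0.53, edgeR adjusted p = 0.285). Epha7 had 11, 10 and 8 counts in the Hcy libraries and 16, 26 and 18 in the Veh libraries (edgeR adjusted p = 0.289). Epha1 overlaps in the listed positions with Zyx on the other strand, a gene with 23326 counts against its 65, so its reads cannot be assigned with certainty.

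Among the ligands of these receptors, Efna1 rose. It encodes ephrin-A1, which endothelial cells are known to make in response to inflammatory signals, and is listed on chromosome 2 from 188588796 to 188596222. Its level was 29.6, 28.1 and 32.0 CPM in Hcy and 21.1, 19.6 and 22.4 CPM in Veh, with no overlap. The mean was 29.9 ± 1.94 CPM against 21.1 ± 1.40 CPM (SD, n = 3), and the log2 fold change was 0.51 (SE 0.10, edgeR adjusted p = 0.0338). The adjusted p of Efna1 was above the threshold for 5 of the 6 libraries when each was left out, at up to 0.2 without Hcy replicate 3. Its neighbours on the chromosome, Efna3 at a gap of 41630 bases and then Efna4 at a further 10716 bases, did not pass. Efna4 was at 1.37 to 2.08 CPM in Hcy and 1.47 to 1.84 CPM in Veh, while Efna3 had 0, 1 and 1 counts in the Hcy libraries and 2, 4 and 3 in the Veh libraries. Efna5 was at 2 to 6 counts in every library. The ligand and its main receptor thus had opposite signs, Efna1 higher and Epha2 lower in Hcy, although only the first passed the adjusted p.

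Efnb2 encodes ephrin-B2, the arterial ligand of EphB4 and also a ligand of EphB1. It was at 53.3, 52.7 and 54.4 CPM in Hcy and 43.0, 43.6 and 35.4 CPM in Veh. The groups did not overlap, and Veh replicate 3 was the lowest. Its log2 fold change of 0.39 (standard error 0.09) had an adjusted p of 0.0711 from edgeR. DESeq2 on the same counts gave an adjusted p of 0.0178, and edgeR without Veh replicate 3 gave 0.0207 with a log2 fold change of 0.31. Efnb2 passed in 1 of the 6 edgeR fits with a library left out, and its adjusted p reached 0.271 without Hcy replicate 3. Efnb1, which encodes ephrin-B1, was at 38.0 to 41.3 CPM in Hcy and 36.4 to 41.3 CPM in Veh, with a log2 fold change of 0.04 and a 95% confidence interval from -0.15 to 0.24. The ephrin-B level per kb was split between these genes, with 48.9% ± 1.16 from Efnb1 in Hcy and 55.0% ± 2.47 in Veh (SD, n = 3).

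**Figure D3:**
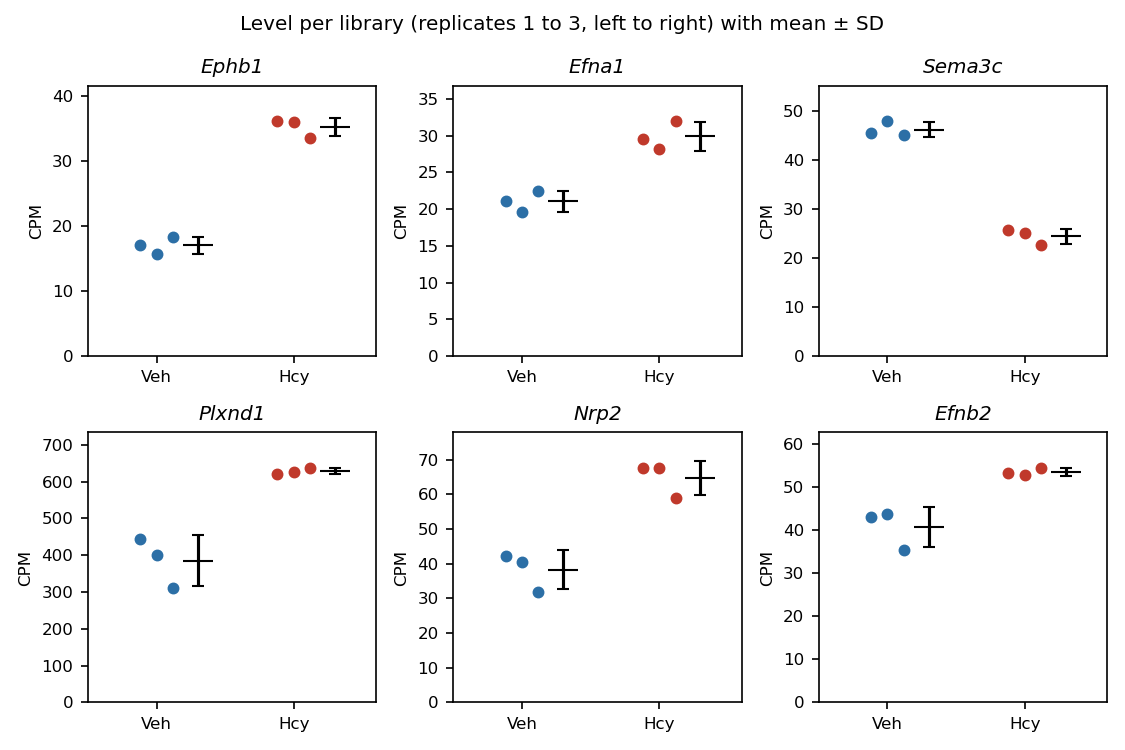
Level in CPM of Ephb1, Efna1, Sema3c, Plxnd1, Nrp2 and Efnb2 in each library (blue Veh, red Hcy, replicates 1 to 3 from left to right), with the mean and SD in black. The groups of all 6 genes are apart, where 20.1% of all genes tested were. In Plxnd1, Nrp2, Efnb2 and, by a narrow margin, Sema3c the third Veh point is the lowest.

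Of the 7 class 3 semaphorins, Sema3c fell and no other passed the adjusted p by edgeR. Sema3c encodes a secreted semaphorin that signals through both neuropilins and plexin-D1 and is listed on chromosome 4 (14318274 to 14490446, minus strand). Its level was 25.6, 25.1 and 22.7 CPM in Hcy and 45.6, 47.9 and 45.1 CPM in Veh. Each Hcy library was far below each Veh library. The mean was 24.5 ± 1.53 CPM against 46.2 ± 1.52 CPM (SD, n = 3), and the log2 fold change was -0.92 (SE 0.08, edgeR adjusted p = 0.00113), which did not reach the fold threshold. With each library left out it stayed between -0.95 and -0.87, and the adjusted p was at most 0.0106 in those fits. In Sema3g and Sema3f the Hcy libraries lay above all Veh libraries. Sema3g, a ligand of neuropilin 2, was at 15.8, 16.9 and 15.3 CPM in Hcy and 11.6, 10.5 and 5.68 CPM in Veh. Veh replicate 3 was the lowest by far, and the log2 fold change of 0.79 (SE 0.23, edgeR adjusted p = 0.14) became 0.54 without it (edgeR adjusted p = 0.0275), while DESeq2 on all libraries gave an adjusted p of 0.0157. Sema3g passed in 1 of the 6 edgeR fits with a library left out, and its adjusted p reached 0.338 without Hcy replicate 3. Sema3f, a repellent that also prefers neuropilin 2, was at 41.4 to 44.2 CPM in Hcy and 33.7 to 35.7 CPM in Veh, with a log2 fold change of 0.30 (SE 0.08, edgeR adjusted p = 0.0935).

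The remaining class 3 genes were low. Sema3e, whose product binds plexin-D1 without a neuropilin, had 5, 1 and 4 counts in the Hcy libraries and 10, 8 and 11 in the Veh libraries (edgeR adjusted p = 0.326). Sema3a, the classical repellent that acts through neuropilin 1, was at 1.97 to 3.43 CPM in Hcy and 2.42 to 2.74 CPM in Veh, and its log2 fold change of -0.01 had a 95% confidence interval from -0.61 to 0.59. Sema3b and Sema3d were below 1 CPM in every library. The class 3 level per kb was similar in sum, at 17.1 ± 0.633 CPM per kb in Hcy and 18.3 ± 0.868 CPM per kb in Veh (SD, n = 3), but its make-up was not. Sema3c gave 49.6% ± 1.37 of it in Veh and 28.1% ± 0.793 in Hcy. Sema3f gave 30.9% ± 2.51 and 40.8% ± 1.65, and Sema3g 13.1% ± 4.05 and 24.6% ± 0.771, in Veh and Hcy respectively. These shares are descriptions without a test.

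**Figure D4:**
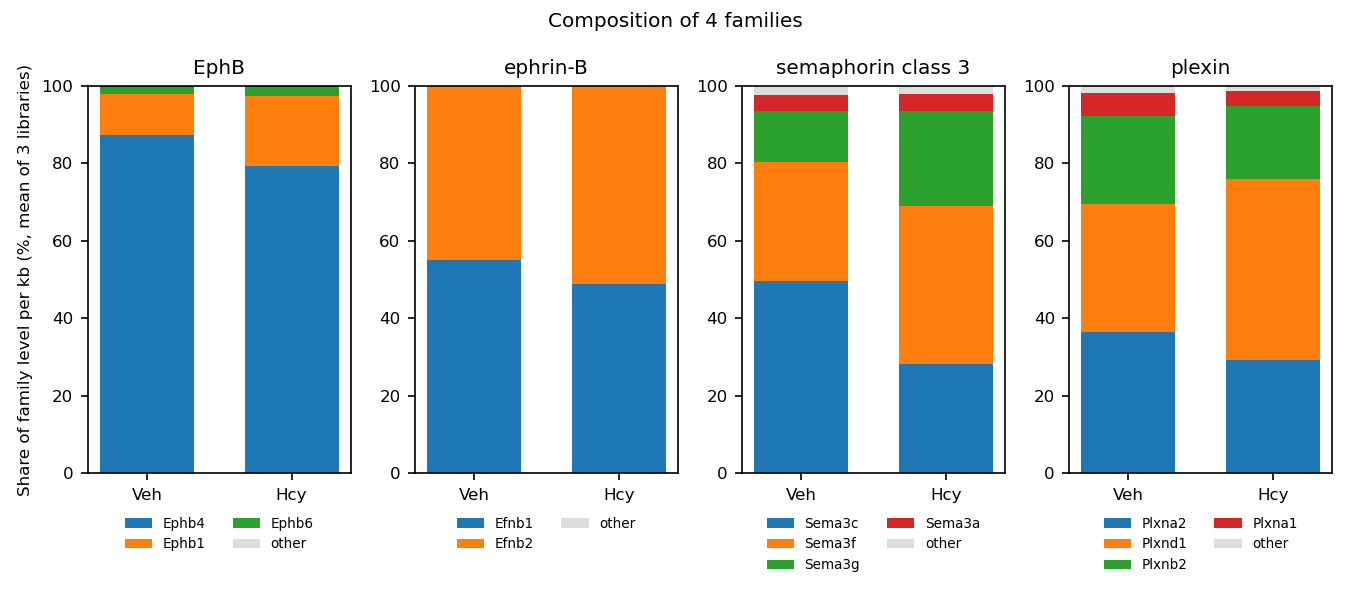
Share of each gene in the level per kb of the EphB receptors, ephrin-B ligands, class 3 semaphorins and plexins, as the mean of 3 libraries in percent, with Veh on the left and Hcy on the right of each pair. The Sema3c share is 49.6% in Veh and 28.1% in Hcy, and the Plxnd1 share 33.1% and 46.9%.

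Plxnd1 rose among the receptors of the semaphorins. It encodes plexin-D1 and is listed on chromosome 4 from 147854309 to 147893992. Its level was 621, 625 and 638 CPM in Hcy and 444, 401 and 310 CPM in Veh. The Hcy libraries were tightly grouped, and the Veh libraries spread, with Veh replicate 3 the lowest. The mean was 628 ± 8.57 CPM against 385 ± 68.7 CPM (SD, n = 3), and the log2 fold change was 0.71 (SE 0.12, edgeR adjusted p = 0.0177). Without Veh replicate 3 it was 0.57 (edgeR adjusted p = 0.000417). With 1 library left out, the adjusted p of Plxnd1 was above the threshold for 4 of the 6 libraries, at up to 0.102 without Hcy replicate 3. Plxnd1 made up 33.1% ± 0.988 of the plexin level per kb in Veh and 46.9% ± 1.66 in Hcy, while Plxna2 made up 36.5% ± 1.79 and 29.2% ± 1.53 (SD, n = 3).

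No class A or B plexin passed the adjusted p by edgeR, and Plxna1 passed by DESeq2 at 0.0365. Plxna2, a receptor of class 3 and class 6 semaphorins, was at 661, 781 and 694 CPM in Hcy and 867, 872 and 581 CPM in Veh. Veh replicate 3 was below all Hcy libraries and the other Veh libraries lay above them. The log2 fold change of Plxna2 was -0.12 (edgeR adjusted p = 0.801) and -0.29 without Veh replicate 3 (edgeR adjusted p = 0.0315). Plxna1 was at 70.0, 78.3 and 74.4 CPM in Hcy and 113, 115 and 77.5 CPM in Veh, where Veh replicate 3 lay inside the Hcy range, with a log2 fold change of -0.45 (edgeR adjusted p = 0.175) and of -0.62 without that library (edgeR adjusted p = 0.000681). Plxna2 and Plxna1 each passed in 1 of the 6 edgeR fits with a library left out, and their adjusted p reached 0.972 and 0.441. Plxnb2, a receptor of class 4 semaphorins, was at 259 to 282 CPM in Hcy and 244 to 312 CPM in Veh, with a 95% confidence interval of the log2 fold change from -0.27 to 0.16. Plxnb1, the receptor of semaphorin 4D, had 9, 9 and 8 counts in the Hcy libraries and 2, 5 and 0 in the Veh libraries, and its log2 fold change of 1.90 (standard error 0.78) had an adjusted p of 0.324 from edgeR.

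No membrane-bound semaphorin passed the adjusted p by edgeR. Sema7a, which encodes the lipid-anchored semaphorin 7A, a ligand of integrins and plexin-C1, was at 886, 842 and 895 CPM in Hcy and 774, 709 and 623 CPM in Veh. The groups did not overlap, and the log2 fold change was 0.32 (SE 0.09, edgeR adjusted p = 0.114). DESeq2 gave an adjusted p of 0.0222, and edgeR without Veh replicate 3 gave 0.0314 with a log2 fold change of 0.24. Sema7a passed in 1 of the 6 edgeR fits with a library left out, and its adjusted p reached 0.386 without Hcy replicate 3. Plxnc1, the gene of its plexin receptor, was at 0 to 2 counts in every library. Sema6b was at 66.7 to 67.2 CPM in Hcy and 51.2 to 63.4 CPM in Veh (log2 fold change 0.24, edgeR adjusted p = 0.261). Sema6a, a ligand of plexin-A2 and plexin-A4, and Sema6d, a ligand of plexin-A1, overlapped between groups, with log2 fold changes of 0.08 and -0.16. Sema4c, a ligand of plexin-B2, made up most of class 4 and was at 31.6 to 32.6 CPM in Hcy and 29.8 to 37.9 CPM in Veh (log2 fold change -0.11, edgeR adjusted p = 0.715). All 5 class 4 genes tested had a fitted log2 fold change below 0, where 7749 of all 14603 genes tested did. By edgeR 0 of the 5 had an unadjusted p of at most 0.05, against 13.4% of all genes. In 2 of them all Hcy libraries lay below all Veh libraries, where 20.1% of all genes were apart in either direction. DESeq2 gave adjusted p values of 0.713, 0.87 and 0.956 for Sema4b, Sema4c and Sema4g. Sema4b was at 1.81 to 1.94 CPM in Hcy and 2.35 to 2.74 CPM in Veh, Sema4g at 2.57 to 4.17 and 2.49 to 4.91 CPM, and Sema4d at 0 to 5 counts in every library.

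The netrin pathway was present mainly on the receptor side. Unc5b was at 65.1, 62.1 and 60.1 CPM in Hcy and 70.8, 69.0 and 56.3 CPM in Veh. The groups overlapped, and the log2 fold change was -0.07 with a 95% confidence interval from -0.29 to 0.15. Unc5a and Unc5c were at 2 to 9 counts in every library. Of the netrins, Ntn4, a netrin of basement membranes, had 8, 13 and 15 counts in the Hcy libraries and 24, 6 and 12 in the Veh libraries, Ntn3 had at most 4 counts and Ntn1, the founding member, at most 3 counts in any library. The log2 fold change of Ntn4 was -0.17 with a 95% confidence interval from -1.30 to 0.96.

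Outside the 4 families, Nrp2 rose. Among 20 co-receptors and other ligands and 47 intracellular effectors listed by their role, 54 were tested and 0 were called at both thresholds by edgeR, while DESeq2 also called 0 and 11 had an unadjusted p of 0.05 or less, where 13.4% of all genes had one. Without the fold threshold 2 passed by edgeR, Nrp2 and Crmp1, both higher in Hcy, against 2.34% of all genes. With the replicate number as a block, edgeR passed Nrp2 only, against 2.04% of all genes. DESeq2 passed 4, with Met and Mical2 lower in Hcy beside them, against 5.09% of all genes. Nrp2 encodes neuropilin 2, a co-receptor of class 3 semaphorins and of VEGF-C. It was at 67.4, 67.6 and 58.9 CPM in Hcy and 42.2, 40.6 and 31.8 CPM in Veh, without overlap. The mean was 64.7 ± 4.98 CPM against 38.2 ± 5.62 CPM (SD, n = 3), with a log2 fold change of 0.76 (SE 0.12, edgeR adjusted p = 0.0128). Its adjusted p reached 0.0762 without Hcy replicate 1 and 0.0659 without Hcy replicate 2. Nrp1, the more abundant neuropilin per length at 31.7 CPM per kb against 8.07 CPM per kb, overlapped between groups at 175 to 199 CPM in Hcy and 139 to 178 CPM in Veh (log2 fold change 0.21, edgeR adjusted p = 0.449). Without Veh replicate 3 the log2 fold change of Nrp1 was 0.11 (edgeR adjusted p = 0.417). Neo1, the gene of neogenin, was at 11 to 25 counts in every library, and Dcc had no count.

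Crmp1 encodes a collapsin response mediator, a cytoplasmic protein that acts below semaphorin 3A. It was at 10.6 to 11.9 CPM in Hcy and 6.56 to 7.54 CPM in Veh, with a log2 fold change of 0.65 (SE 0.13, edgeR adjusted p = 0.0406). With 1 library left out, its adjusted p was above the threshold for 5 of the 6, at up to 0.192 without Hcy replicate 3. With the replicate number as a block in edgeR, the adjusted p of Crmp1 was 0.065, also above the threshold. Mical2, of a family of actin-oxidizing enzymes that act below plexins, was at 15.7 to 23.2 CPM in Hcy and 24.8 to 31.1 CPM in Veh (log2 fold change -0.60, edgeR adjusted p = 0.103, DESeq2 adjusted p = 0.0123). Met, a receptor kinase that can pair with class B plexins, was at 7.58 to 9.05 CPM in Hcy and 11.0 to 16.6 CPM in Veh (log2 fold change -0.68, edgeR adjusted p = 0.094, DESeq2 adjusted p = 0.0217). Rin1, an effector of Ras that also acts on EphA4, had 6, 14 and 2 counts in the Hcy libraries and 49, 15 and 13 in the Veh libraries (edgeR adjusted p = 0.322).

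How many members passed turned on the libraries and the tool. DESeq2 passed 8 members in place of 4, with Efnb2, Sema3g, Sema7a and Plxna1 beside the 4, and 5.09% of all genes. With Veh replicate 3 left out, 12 members had an adjusted p of at most 0.05 in place of 4, and the share over all genes went from 2.34% to 6.67%. The 4 remained, and Efnb2, Sema3f, Sema3g, Sema7a, Epha2, Plxna1, Plxna2 and Plxna4 joined them. With any other library left out, 2 or 3 members passed, Ephb1 and Sema3c among them each time, and 0.557% to 1.05% of all genes.

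**Figure D5:**
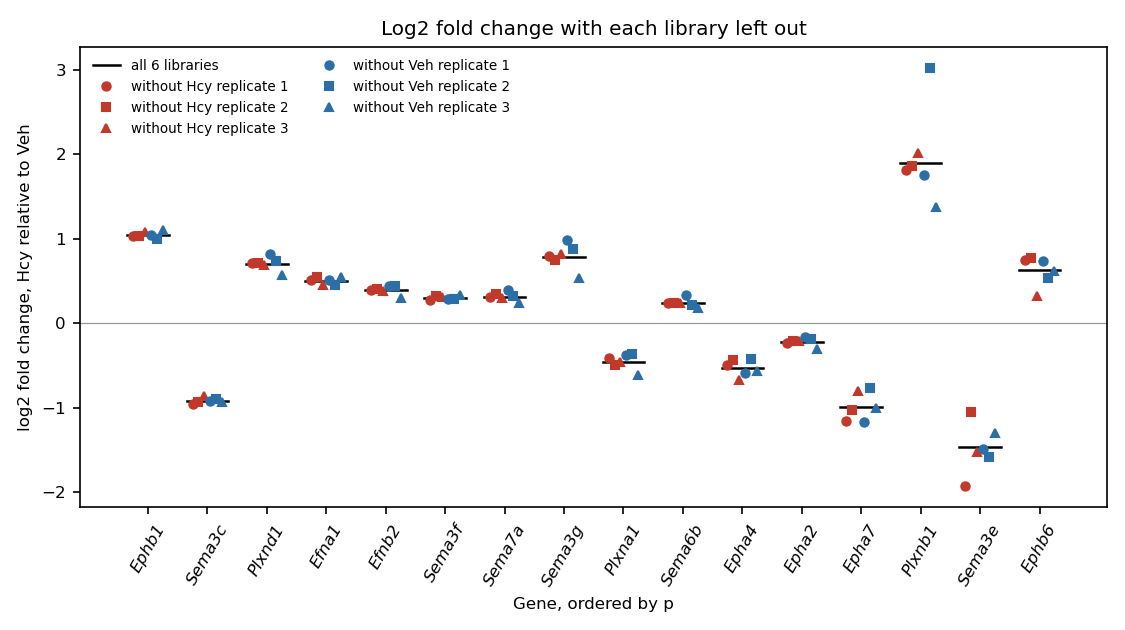
Log2 fold change, Hcy relative to Veh, of the 16 members with an unadjusted p of at most 0.05, with all 6 libraries (black bar) and with each library left out (red symbols for an Hcy library, blue for a Veh library). Ephb1 stays between 0.99 and 1.10 and Sema3c between -0.95 and -0.87, while the scarce Plxnb1 runs from 1.38 to 3.02.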

How the data were processed

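For the 6 rBMEC libraries the authors deposited unnormalized read counts, 1 row per gene, with gene positions and lengths. The submitters' processing notes name HISAT2 2.2.1, StringTie 2.2.3, featureCounts 2.0.6 and mRatBN7.2, without stating whether counting used the strand. The table names no build, and since it reaches position 282724300 on chromosome 1, beyond the end of that chromosome in mRatBN7.2, its positions are printed only as listed. A second deposited table, with the authors' own DESeq2 comparison (normalized values, log2 fold changes and p-values), was not used.

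Genes with at least 10 summed counts were kept (14603), scaled with TMM factors of 0.977 to 1.02 and compared with edgeR 4.0.16 (quasi-likelihood test, group as the only term, prior count 0.125) in R 4.3.3, with Benjamini-Hochberg adjustment over all genes tested. Standard errors are the log2 fold change divided by the square root of F. DESeq2 1.42.0 was an alternative, as were scaling by its size factors or by library totals, other minimums of counts, the unadjusted p, no fold threshold, a prior count of 2, a replicate block and leaving out each library. The thresholds of a call follow the study's methods. Depth was 14024997 to 16764584 counts per library.

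Members and gene lists were chosen with earlier results of these data known. Genes named were members with an unadjusted p of at most 0.05, the 3 members of each family with the highest level per length, pairs known from vessels, and Nrp1, Nrp2, Neo1 and Dcc, and other co-receptors and effectors whose unadjusted p was 0.05 or less with a fold change of 0.5 or more on the log2 scale. Members under the count minimum were also named. Epha1, Efna3, Sema3b, Sema3d and Plxna4, outside this rule, were named after their values were seen. Promoter windows come from RefSeq (GRCr8) and were matched by symbol.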

Additional observations from a re-analysis of the deposited data

How the results depend on the processing

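The number of guidance genes called was 1, Ephb1, in each alternative fit run with both thresholds except without Veh replicate 2, so that it ran from 0 to 1 with each library left out. It was 3 with the unadjusted p (Ephb1, Plxnb1 and Sema3e) and 4 without the fold threshold. Members at an adjusted p of at most 0.05 numbered 4, 8 with DESeq2 and 2 to 12 with each library left out, and co-receptors and effectors 2, 4 with DESeq2 or with at least 1 summed count, 1 with the replicate block and 0 to 5 with each library left out, counts chosen after the data were seen. Over all genes, 71 were called, 109 with at least 1 summed count, 374 with the unadjusted p, 341 without the fold threshold and 39 to 112 with each library left out. Co-receptors and effectors called were 0, 1 with the unadjusted p (Rin1) and 2 without the fold threshold. Another scaling moved the median log2 fold change of all genes from -0.02 to -0.01 and turned the sign of none of the 41 guidance, co-receptor and effector genes followed here.

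The replicate number as a block gave 82 genes, 63 of them among the 71, and 1 guidance gene, and Crmp1 lost its adjusted p at 0.065. Deviations from the group means of replicates 1, 2 and 3 correlated at 0.00873, 0.208 and 0.0581 between libraries of the same number, across 12296 genes. Between libraries of different numbers the correlations ran from -0.217 to 0.162. With 3 libraries per group, these values cannot decide whether libraries of the same number shared an isolation.

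Signs that turned belong to genes without a call. Log2 fold changes with each library left out ran from -0.04 to 0.24 for Efna4, -0.40 to 0.18 for Efna5, -0.58 to 0.17 for Neo1, -0.079 to 1.36 for Ntn3, -0.53 to 0.38 for Ntn4, -0.15 to 0.023 for Plxnb2, -0.28 to 0.15 for Sema3a, -1.07 to 0.10 for Sema4d (2 fits, as it was under the count minimum in the others), -0.40 to 0.045 for Sema4g, -0.11 to 0.21 for Sema6a and -0.39 to 0.44 for Unc5c. The cause was not tested. Depth limits the genes under 10 counts a library, where edgeR's filterByExpr left out 7 of the 41 genes.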

Other observations

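Genes of arterial and of venous or lymphatic endothelium were also listed by role, beside Efnb2 and Ephb4. Of 7 arterial genes, 6 were tested, 0 passed an adjusted p of at most 0.05 by edgeR and 3 had an unadjusted p of at most 0.05, all higher in Hcy, where 13.4% of all genes had one in either direction. Dll4, a Notch ligand of arteries and sprouting tips, was at 98.8 to 122 CPM in Hcy and 72.4 to 90.2 CPM in Veh, with a log2 fold change of 0.50 (SE 0.11, edgeR adjusted p = 0.0597). Sox17, an arterial transcription factor, was at 125 to 131 CPM in Hcy and 100 to 112 CPM in Veh (log2 fold change 0.29, edgeR adjusted p = 0.0983). Of 6 venous and lymphatic genes, 5 were tested and 0 passed an adjusted p of at most 0.05 by edgeR, with 1 at an unadjusted p of at most 0.05. That gene, Aplnr, the apelin receptor, had 30, 31 and 39 counts in the Hcy libraries and 5, 18 and 11 in the Veh libraries (log2 fold change 1.57, edgeR adjusted p = 0.111). Flt4 and Lyve1, known from lymphatic vessels, were well expressed in both groups, at 264 to 342 CPM and at 141 to 154 CPM over the 6 libraries, while Prox1, the lymphatic transcription factor, had at most 3 counts in any library.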
